A study of Mus musculus with 8 samples.

Results

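The comparison described here sets a TC-1 tumour lysate from mice given interleukin-7 against one from mice given buffer, 2 of the 8 membranes of a mouse cytokine antibody array study. All 111 proteins that the array lists were taken, from the membrane of each of the 2 groups. TC-1 cells are transformed mouse lung epithelium that carries the HPV16 oncogenes E6 and E7. Both groups were female C57BL mice, 10 weeks old, that had 100000 TC-1 cells inoculated subcutaneously in a thigh. Treatment began once tumours had reached about 100 mm3, which took 8 to 10 days. The IL-7 group received 50 µg of rhIL-7-hyFc, a long-acting human IL-7 fused to an Fc, under the skin on days 0 and 7, and the buffer group received buffer. Groups used beside them were TC-1 with whole-body gamma irradiation (RT, 2 Gy a day for 4 days) plus IL-7, and TC-1 with RT alone. TC-1/IR, the radiation-resistant line, entered in the same 4 treatments after 300000 cells. Tumours were taken at the end of the experiment, and the lysate was cleared at 10000 × g for 5 min. How many animals a membrane stands for is not settled, since the titles call each lysate pooled and the design text speaks of individual mice. The array holds no protein that defines TC-1 cells, so the tumour label could not be checked, and fewer cells of a type cannot be told apart from less protein per cell.

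IL-7 is made by stromal and epithelial cells and keeps naive and memory T cells alive through a receptor that shares the common gamma chain with those for IL-2, IL-4 and IL-15. Given as a drug it enlarges the T cell pool, and activated T cells in turn release interferon-γ, which induces the CXCR3 ligands CXCL9, CXCL10 and CXCL11 in tumour and myeloid cells. Tumour lysates also contain proteins of neutrophils, macrophages, vessels, fibroblasts and blood plasma, and an antibody array reads all of them without telling their source.

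Each protein was read in 2 spots per membrane, in arbitrary intensity units. Means below a floor of 2.49, which is 1% of the highest protein mean in the study, were set to that floor, and a ratio against a floored value is a lower bound written "at least". A protein was called higher or lower by size: at least 1.5-fold, above the floor on at least 1 of the membranes, and with spots of the 2 membranes that did not overlap. With 1 membrane a group there is no replicate and no p-value for this comparison, and standard errors (SE) were computed from the paired spots, which measure technical error alone. A membrane with its mean at or below the floor added nothing to the SE. The SE of a lower bound therefore holds the IL-7 spots only and is too small. The median coefficient of variation between paired spots was 5.02% on the IL-7 membrane and 6.60% on the buffer membrane.

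Most measured proteins read higher on the IL-7 membrane. It had 91 proteins above the floor and a summed intensity of 1449, against 68 proteins and 1204 on the buffer membrane. All 68 proteins above the floor with buffer were also above it with IL-7, 23 were above it with IL-7 alone, and 20 were below it on both. Those 20 were BAFF, CCL2, CCL5, CCL20, CD93, CRP, CXCL1, endoglin, GM-CSF, ICAM-1, IL-2, IL-3, IL-6, IL-17A, lipocalin-2, MMP-3, MMP-9, osteoprotegerin, P-selectin and resistin. Of the 91 measured, 29 were called higher (31.9%) and 1 lower (1.1%), and 61 were neither. The median log2 ratio over the 91 was 0.42, or 1.34-fold, and each ratio stands against that median. The 23 proteins above the floor with IL-7 alone could only have positive ratios, and they hold 13 of the 29 higher calls. The filter therefore sets part of the median and of the 31.9%. Of the 68 above the floor on both membranes, 16 were called higher. Over the 28 proteins above the floor on all 8 membranes, the median log2 level was 4.16 with IL-7 and 4.03 with buffer. Their gap of 0.14 lies between membrane medians, is not a median of ratios, and cannot be compared with 0.42. After the membranes were centred on those proteins and the floor applied, 81 were measured, with 17 higher (21%) and 1 lower (1.23%). All 17 were among the 29. The split was 15 higher and 4 lower when each membrane was scaled to its sum, and 16 and 7 when centred on the proteins above the floor on both.

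**Figure D1:**
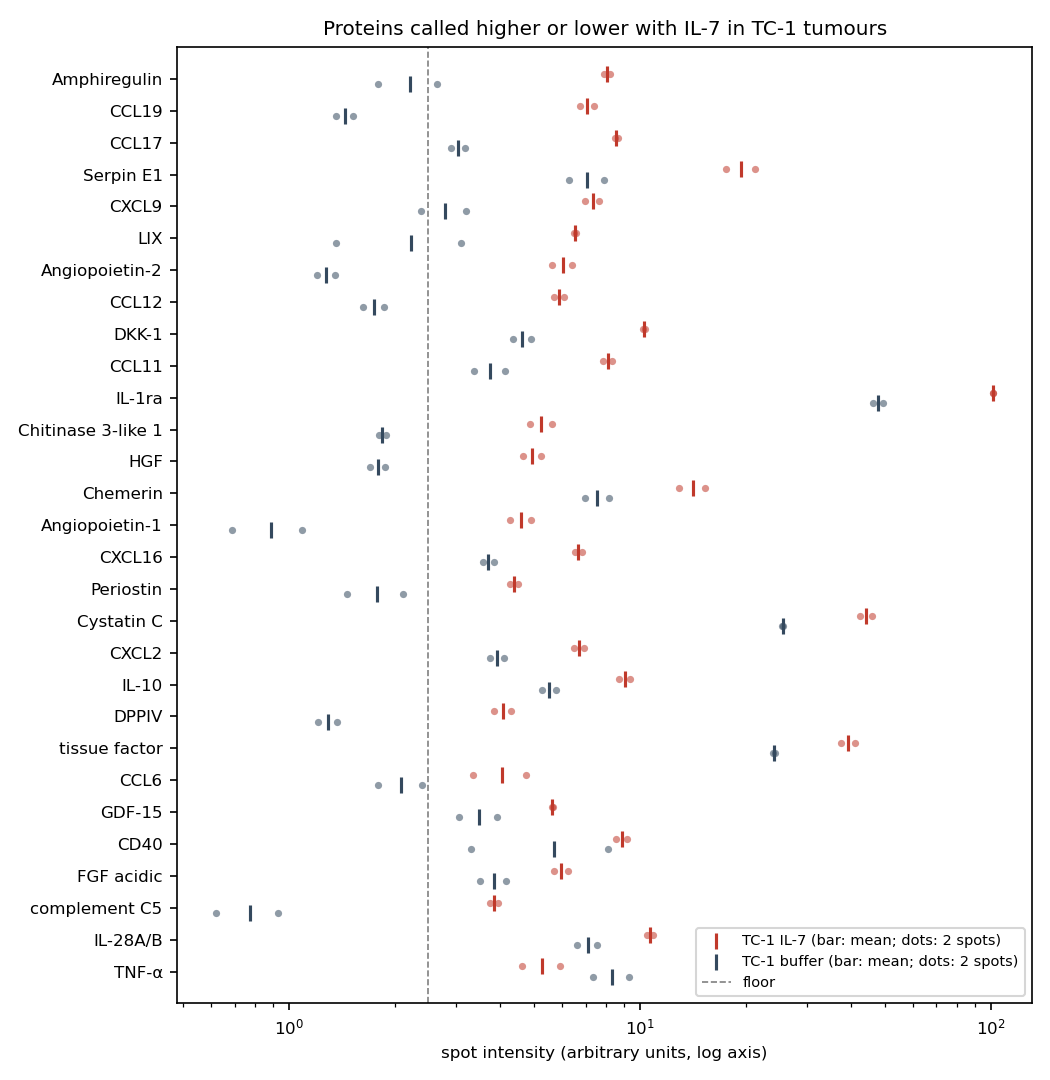
Spot intensities of 28 of the 29 proteins called higher and of TNF-α, called lower, in TC-1 tumours with IL-7 (red) and with buffer (dark), on a log axis in arbitrary units. Dots are the duplicate spots, bars their mean, and the dashed line is the floor of 2.49; the strongest called protein is IL-1ra, at a mean of 101.6 with IL-7 and 47.7 with buffer.

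Among chemokines that attract T and NK cells, 2 of 6 measured members were called higher and none lower, a share near the 31.9% of all proteins. CXCL9, a ligand of CXCR3 that interferon-γ induces, had spots of 6.99 and 7.67 with IL-7, against 2.38 and 3.20 with buffer. That was 2.63-fold higher (log2 1.39, SE 0.22), with 1 buffer spot below the floor. CXCL16, which binds CXCR6 on T and NKT cells, read 6.83 and 6.53 with IL-7, against 3.83 and 3.57 with buffer, or 1.81-fold (log2 0.85, SE 0.06). CXCL10, another CXCR3 ligand, fell just short of the size rule at 14.7 with IL-7 against 9.92 with buffer (1.49-fold, log2 0.57, SE 0.08), and its spots did not overlap. CXCL11 had a log2 ratio of 0.23, and the joint reading of CCL3 and CCL4 at least 0.47. CX3CL1, which attracts cytotoxic cells, read 10.5 with IL-7 and 11.7 with buffer. Interferon-γ itself read 4.97 and 5.40 with IL-7, against 3.84 and 3.46 with buffer, a log2 ratio of 0.51 (SE 0.10) that was not called.

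CCL19 and CCL17 had among the largest ratios of all. CCL19, a CCR7 ligand that draws T cells and dendritic cells into lymphoid tissue, read 6.75 and 7.39 with IL-7, against 1.52 and 1.36 with buffer, both under the floor. It was at least 2.84-fold higher (log2 1.51, SE 0.07). The other CCR7 ligand, CCL21, had spots of 3.04 and 1.96 with IL-7, a mean just over the floor, and 1.22 and 0.870 with buffer. The B cell attractant CXCL13 had 3.04 with IL-7 and 1.97 with buffer, without a call. CCL17, which binds CCR4 on Th2 and regulatory T cells, had spots of 8.65 and 8.50 with IL-7, against 3.17 and 2.89 with buffer (2.83-fold, log2 SE 0.07). CCL22 binds the same receptor and did not share that ratio, with 11.6 on the IL-7 membrane and 13.6 on the buffer membrane (log2 -0.23, SE 0.16). CCL11, the eosinophil attractant eotaxin, read 7.87 and 8.30 with IL-7, against 3.37 and 4.12 with buffer, or 2.16-fold (log2 1.11, SE 0.15).

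Attractants of monocytes and neutrophils were also called. Of 4 measured proteins on the monocyte and dendritic cell list 3 were higher, against 31.9% of all proteins, and 2 after centring. CCL12, a CCR2 ligand, read 5.70 and 6.06 with IL-7 and 1.87 and 1.62 with buffer (at least 2.36-fold). Chemerin, a ligand of CMKLR1, read 12.9 and 15.4 with IL-7 and 6.96 and 8.18 with buffer (1.87-fold). CCL6 was at least 1.62-fold higher, with uneven spots of 4.74 and 3.35 on the IL-7 membrane, against 2.39 and 1.79 on the buffer membrane. M-CSF, which sustains macrophages, was 12.7 with IL-7 and 9.68 with buffer, and CCL2 was below the floor on both membranes. Of the neutrophil attractants, LIX (CXCL5) averaged 6.53 with IL-7, against a buffer mean of 2.23 whose spots were 3.09 and 1.36, and was at least 2.62-fold higher. CXCL2 was 1.71-fold higher, at a mean of 6.71 with IL-7 against 3.92 with buffer, and its spots did not overlap. G-CSF, the growth factor of neutrophils, was not called (log2 0.44).

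Of 4 measured products of neutrophils and other myeloid cells 1 was called higher, against 31.9% of all proteins. Myeloperoxidase, a granule enzyme of neutrophils, averaged 24.6 with IL-7 and 25.3 with buffer (log2 -0.04, SE 0.11). Together with lipocalin-2 and MMP-9, both below the floor on both membranes, it summed to 26.9 with IL-7 and 26.4 with buffer. CD14, a monocyte coreceptor for endotoxin, averaged 100.5 with IL-7 and 131.7 with buffer, a log2 ratio of -0.39 (SE 0.01) that was not called. Chitinase 3-like 1, made by macrophages and neutrophils, was the called one, at least 2.10-fold higher with a mean of 5.24 with IL-7 and 1.84 with buffer. Pentraxin 3 had a log2 ratio of 0.49 (SE 0.32).

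None of 5 measured lymphocyte cytokines was called, against 31.9% of all proteins called higher. IL-5, IL-13, IFN-γ and IL-4 had log2 ratios of 0.51 to 0.55, above the median of all proteins and below the 0.58 that the rule asked for. IL-22, of which the buffer mean was below the floor, stood at 0.25 or more. The IL-7 reading averaged 12.5 with the drug and 13.2 with buffer (log2 -0.08, SE 0.13), and the spots of 12.2 and 12.7 with the drug lay within the range of the buffer spots. No source used here says whether this mouse array detects the human drug. IL-15, its relative for memory T and NK cells, averaged 16.5 with IL-7 and 11.4 with buffer (log2 0.53, SE 0.06). Flt-3 ligand and thrombopoietin, which act on progenitors, had 0.19 and at least 0.48. Among cytokines of antigen-presenting cells, IL-10, which restrains them, was called at 8.74 and 9.37 with IL-7 against 5.25 and 5.77 with buffer (1.64-fold, log2 0.72, SE 0.08). The interferon-λ reading IL-28A/B was 1.51-fold higher at 10.7 with IL-7 and 7.09 with buffer. IL-12 and IL-27 p28 had log2 ratios of 0.28 and 0.53, and IL-23 at least 0.36, without a call.

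Of IL-1, TNF and IL-6 relatives 1 of 7 measured members was called in each direction, against 31.9% of all proteins higher and 1.1% lower. IL-1ra, the antagonist that occupies the IL-1 receptor, had spots of 101.58 and 101.56 with IL-7, against 49.2 and 46.3 with buffer. It was 2.13-fold higher (log2 1.09, SE 0.04) and was among the strongest proteins of the IL-7 membrane, behind osteopontin and pentraxin 2 only. IL-1α averaged 6.22 with IL-7 and 5.18 with buffer, and IL-1β 4.02 with IL-7 and 3.30 with buffer, neither called. TNF-α was the 1 protein called lower, at 5.93 and 4.61 with IL-7 against 9.28 and 7.34 with buffer (1.58-fold lower, log2 -0.66, SE 0.25). The alarmin IL-33 averaged 48.8 with IL-7 and 35.6 with buffer (log2 0.45, SE 0.12). LIF and IL-11, of the IL-6 family, had log2 ratios of -0.01 and 0.37.

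Of 6 epithelial growth factors 3 were called higher, against 31.9% of all proteins, and 1 after centring. The list median was 0.54 against 0.42 for all proteins. Amphiregulin, a ligand of the EGF receptor, read 7.89 and 8.22 with IL-7, against 1.79 and 2.64 with buffer, and was at least 3.23-fold higher (log2 1.69, SE 0.03). HGF, the ligand of MET, was at least 1.98-fold higher at 5.22 and 4.64 with IL-7 and 1.70 and 1.88 with buffer. FGF acidic was 1.55-fold higher, while EGF, Gas 6 and Reg3G were not called. Of 9 vessel factors 3 were called higher, near the 31.9% of all proteins, and the list median of 0.22 was below that of all. The called ones included angiopoietin-2, which loosens vessels, at least 2.42-fold, and angiopoietin-1, which stabilises them, at least 1.84-fold. Buffer spots of both angiopoietins were at most 1.35 units. VEGF averaged 6.25 with IL-7 and 5.36 with buffer, and endostatin, a vessel inhibitor cut from collagen XVIII, 50.2 with IL-7 and 48.5 with buffer. Serpin F1, also an inhibitor, averaged 66.4 with IL-7 and 53.1 with buffer, PDGF-BB had a log2 ratio of 0.19, proliferin -0.11 and PD-ECGF -0.26, and none of these was called.

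Of the matrix, proteolysis and Wnt-linked proteins, the list with the most members, 6 of 9 measured were called higher against 31.9% of all proteins, and 3 after centring. The list median was 0.71 against 0.42 for all. Serpin E1, the inhibitor of plasminogen activators, read 21.3 and 17.6 with IL-7, against 7.89 and 6.26 with buffer (2.75-fold, log2 1.46, SE 0.22). Tissue factor, which starts coagulation, averaged 39.3 with IL-7 and 24.1 with buffer (1.63-fold), and cystatin C, an inhibitor of cysteine proteases, 44.2 with IL-7 and 25.5 with buffer (1.73-fold). DKK-1, a Wnt antagonist, was 2.23-fold higher at 10.37 and 10.19 with IL-7 against 4.36 and 4.88 with buffer. Periostin and DPPIV were higher by at least 1.76-fold and 1.63-fold, with buffer means below the floor. With an offset of each membrane subtracted, their log2 ratios were 0.30 and 0.14, and neither was called. Osteopontin, the strongest protein on the IL-7 membrane, averaged 124.2 with IL-7 and 126.5 with buffer, MMP-2 14.4 with IL-7 and 18.1 with buffer, and WISP-1 2.84 with IL-7 and 2.96 with buffer, none of them called.

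On the lists of liver and fat products 1 protein was called. Pentraxin 2 averaged 115.2 with IL-7 and 115.6 with buffer, and fetuin A 94.9 with IL-7 and 106.9 with buffer. With RBP4 and CRP they made 4 plasma markers, which summed to 217.6 with IL-7 and 228.6 with buffer. On the liver list 1 of 5 measured members was called higher, against 31.9% of all proteins. It was complement C5, at least 1.54-fold with a buffer mean of 0.775. The 4 adipose markers summed to 59.9 with IL-7 and 41.7 with buffer, mostly complement factor D (47.7 with IL-7 and 33.2 with buffer). None of the 3 measured was called, against 31.9% of all proteins called higher. Leptin and Pref-1 had log2 ratios of 0.37 and 0.42, and adiponectin at least 0.42. The 5 endothelial markers summed to 11.6 with IL-7 and 7.75 with buffer. Of them E-selectin and VCAM-1 alone were above the floor, and neither was called, against 31.9% of all proteins called higher. So few measured markers cannot set these lists apart from all proteins. GDF-15, a stress cytokine, was 1.62-fold higher, while its list partner FGF-21 averaged 5.00 with IL-7 and 4.48 with buffer. CD40 was 1.56-fold higher with buffer spots of 3.30 and 8.11 (SE 0.61). TIM-1, RAGE and LDL R had log2 ratios of -0.25, -0.17 and -0.29, and CD160 at least 0.07, without a call. None of the 5 IGF binding proteins was called, against 31.9% of all proteins called higher. IGFBP-2, IGFBP-5 and IGFBP-6 had log2 ratios of -0.09, 0.29 and 0.25, and IGFBP-1 and IGFBP-3 at least 0.07 and 0.51.

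**Figure D2:**
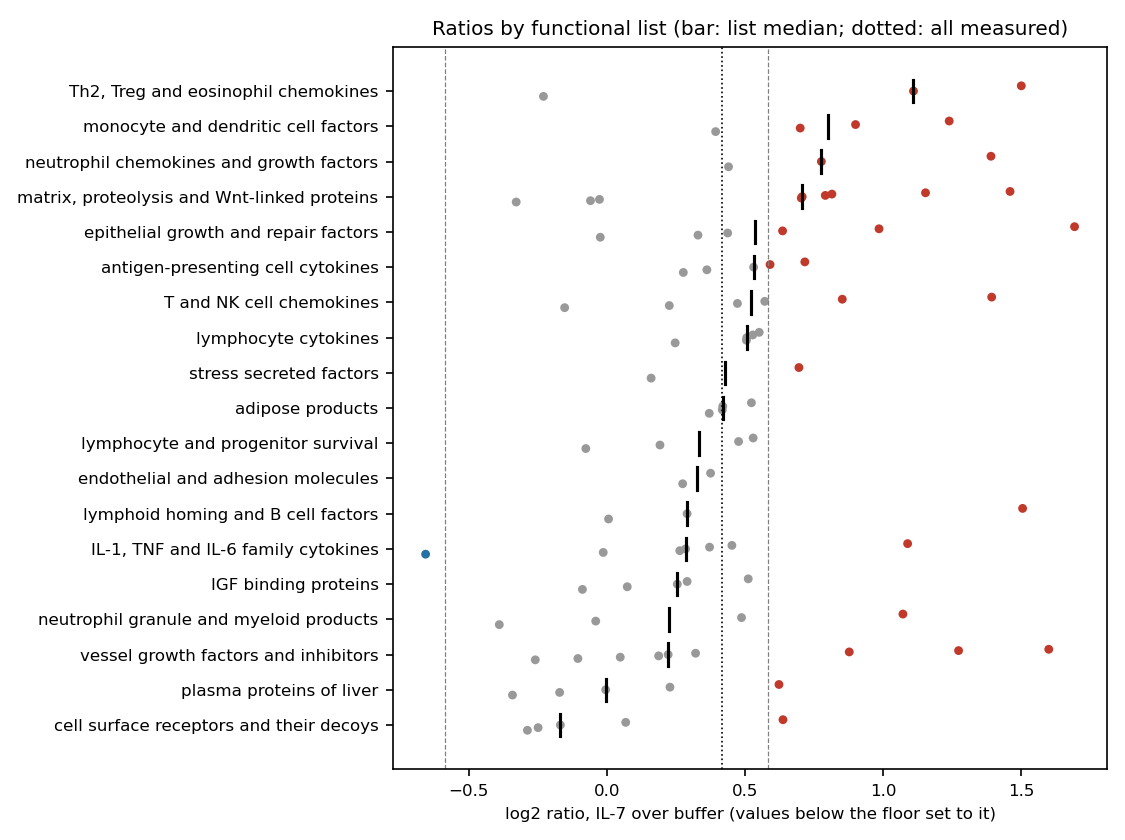
Log2 ratio of IL-7 over buffer for the 91 measured proteins, 1 row per functional list, with red for called higher, blue for called lower and grey for neither. Black bars are list medians, the dotted line is the median of all measured proteins (0.42), and the dashed lines mark 1.5-fold; TNF-α is the single blue point.

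The nearest proteins inside the 1.5-fold limit were IL-28A/B at 1.51-fold, complement C5 at no less than 1.54-fold, a bound, and FGF acidic at 1.55-fold. Just outside stood CXCL10 at 1.49-fold, IL-5 at 1.47-fold and IL-27 p28 at 1.45-fold. After centring HGF, angiopoietin-1, periostin, IL-10, DPPIV, tissue factor, CCL6, GDF-15, CD40, FGF acidic, complement C5 and IL-28A/B were no longer called. Amphiregulin remained at least 2.39-fold, CCL17 at least 2.55-fold, serpin E1 2.50-fold and IL-1ra 1.93-fold higher. Under the 12 alternatives run on uncentred values, and with plain centring, 7 proteins were called higher throughout, among them amphiregulin, CCL11, CCL17, DKK-1, IL-1ra and serpin E1. With other settings changed as well as centring, they did not all hold: CCL11, at 1.96-fold, and IL-1ra fell short of a 2-fold threshold, and a floor of 2% left 1 protein called higher.

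The ratio differed between ranges of signal and with the place on the membrane. By the geometric mean of the membranes, 17 of 42 proteins of up to 5 units were called higher and 7 of 23 between 5 and 10 units, where TNF-α was lower. Between 10 and 30 units it was 2 of 15, with a median log2 ratio of -0.01, and above 30 units 3 of 11, with a median of 0.32. The range up to 5 units holds all 23 proteins above the floor with IL-7 alone, whose buffer value is fixed at the floor. They could only have positive ratios, and they hold 13 of the 17 higher calls there. The filter therefore sets part of that share, which cannot show by itself that the ratio rises at low signal. The 20 proteins below the floor on both membranes read higher with IL-7 in 19 cases, with medians of 1.39 with IL-7 and 0.895 with buffer. Over the 15 that were below the floor on all 8 membranes the medians were 1.32 with IL-7 and 0.425 with buffer, a gap of 0.900. With each membrane's median of those 15 subtracted, an alternative chosen after seeing the data, 19 of the 29 stayed called. The other 10 were HGF, angiopoietin-1, periostin, DPPIV, CCL6, GDF-15, CD40, FGF acidic, complement C5 and IL-28A/B.

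**Figure D3:**
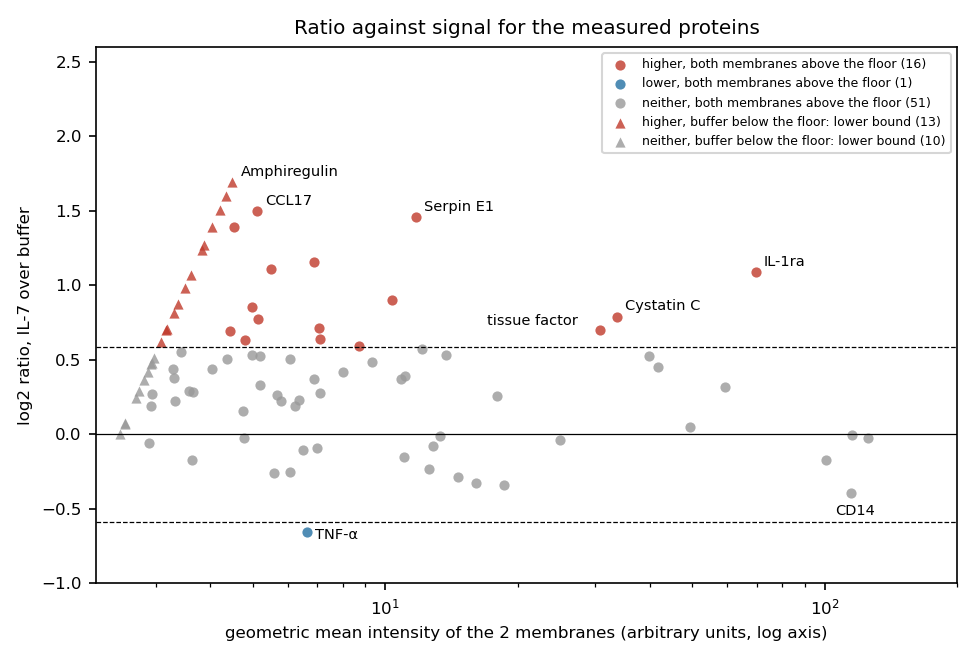
Log2 ratio of IL-7 over buffer against the geometric mean intensity of the 2 membranes (log axis) for the 91 measured proteins. Triangles are lower bounds with buffer below the floor and lie on a line because their buffer value is fixed at 2.49; dashed lines mark 1.5-fold, and IL-1ra, cystatin C and tissue factor are the 3 called proteins above 30 units.

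By row, the medians of the log2 ratio were 1.08 in row A, 0.70 in B, 0.66 in C and 0.57 in D, and lay between -0.02 and 0.45 in rows E to J. Rows A to D held 20 of the 29 proteins called higher among 34 measured. Columns 7 to 12 had a median of 0.70 and 16 calls among 29 measured, and columns 19 to 24 a median of 0.07 and 3 calls among 19. Over the 91 proteins Spearman's rho was -0.41 with row and -0.30 with column, a description in which all points share the same membranes. The 5 proteins of column 23 (fetuin A, IGFBP-2, IL-7, LDL R and PD-ECGF) all had ratios below 0, from -0.29 to -0.08. They were below 0 again on the RT plus IL-7 membrane against the RT membrane, from -0.82 to -0.47, but were 0.37 to 1.59 for the 4 measured in TC-1/IR with IL-7 against buffer. For the same 4 in TC-1/IR with RT plus IL-7 against RT they ran from -1.47 to -0.06. The array runs roughly in alphabetical order, so place and protein family cannot be told apart. With a linear fit on row and column removed, also chosen after seeing the data, 24 of the 29 remained among 38 called higher, and TNF-α, at log2 -0.23, was no longer called lower. The newly called proteins included IL-5, IL-4 and IFN-γ, at log2 0.79, 0.70 and 0.67.

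**Figure D4:**
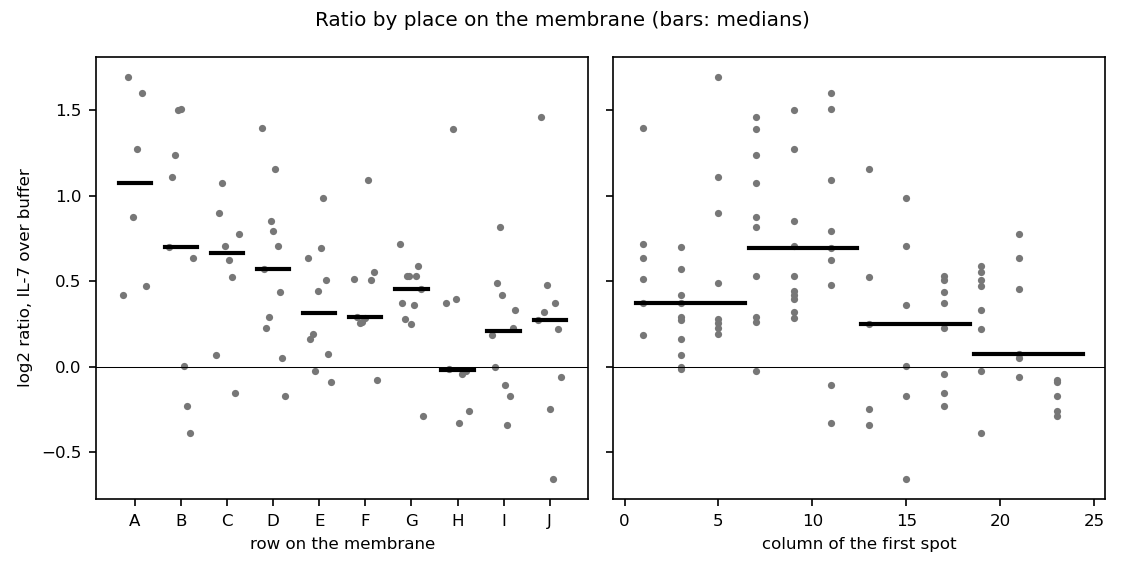
Log2 ratio of IL-7 over buffer for the 91 measured proteins by row of the membrane (left) and by column of the first spot (right). Points are proteins and black bars are medians of a row or of a block of columns; the medians run from 1.08 in row A to -0.02 in row H, and column 23 lies wholly below 0.

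A second pair of TC-1 membranes, RT plus IL-7 against RT, shares no membrane with the first and shows the proteins above under irradiation. In that pair 4 of 88 measured proteins were called higher (4.55%) and 9 lower (10.2%), and after centring 10 (11.5%) and 1 (1.15%) of 87. Of the 29 proteins higher with IL-7 over buffer, 28 were measured, 2 were called higher, 0 lower and 26 neither, with a median log2 ratio of -0.00 against -0.15 for all 88. After centring, 5 of the 29 were higher and 0 lower. CCL19 was called, at 4.95 with RT plus IL-7 and 3.14 with RT (log2 0.66). Amphiregulin averaged 4.04 with RT plus IL-7 and 5.55 with RT, CCL17 6.45 with RT plus IL-7 and 6.15 with RT, and serpin E1 11.7 with RT plus IL-7 and 15.9 with RT. IL-1ra averaged 71.0 with RT plus IL-7 and 53.4 with RT (log2 0.41), without a call. CXCL10 and CX3CL1, not called with IL-7 alone, were called higher in the irradiated pair. CXCL10 averaged 40.5 with RT plus IL-7 and 21.7 with RT (1.87-fold), and CX3CL1 19.4 with RT plus IL-7 and 7.60 with RT (2.55-fold). The IL-7 reading was called lower, at 8.53 with RT plus IL-7 and 13.9 with RT (log2 -0.71), and is one of the column 23 proteins above. After centring its log2 ratio was -0.39, short of the size rule.

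The 29 were chosen for a higher reading with IL-7 than with buffer, which largely sets their order on the 4 TC-1 membranes. The IL-7 membrane was the highest for 26 of the 29 proteins and RT for the other 3 (CCL6, CXCL9 and FGF acidic), while buffer was the lowest for 27. Their median level was 7.07 with IL-7, 4.95 with RT plus IL-7, 5.45 with RT and 3.03 with buffer. The 2 comparisons against buffer share the buffer membrane. For amphiregulin their log2 ratios were at least 1.69 for IL-7 and 1.16 for RT, and for serpin E1 1.46 for IL-7 and 1.17 for RT. CXCL9 had 1.39 for IL-7 and 1.46 for RT, IL-1ra 1.09 for IL-7 and 0.16 for RT, and TNF-α -0.66 for IL-7 and -0.64 for RT.

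In TC-1/IR, IL-7 over buffer had 26 of 53 measured proteins higher (49.1%) and 3 lower (5.66%), and after centring 19 (32.2%) and 11 (18.6%) of 59. Of the 29, 16 were measured there and 5 were called higher: CCL11, chemerin, chitinase 3-like 1, FGF acidic and IL-1ra. After centring, 4 of 19 measured were higher and 6 lower. IL-1ra averaged 22.9 with IL-7 and 4.13 with buffer (log2 2.47). CXCL16, DKK-1 and DPPIV were called lower. CCL17, CXCL9 and the angiopoietins were below the floor on both the IL-7 and the buffer membrane of TC-1/IR. Amphiregulin averaged 3.615 with IL-7 and 0.835 with buffer there, at least 1.45-fold higher and without a call. In this line the IL-7 reading was called higher, at 4.69 with IL-7 and 0.595 with buffer (log2 at least 0.91, and 0.89 after centring). With RT plus IL-7 over RT in TC-1/IR it was called lower, at 1.905 against 3.795. After centring that log2 ratio was 0.22.

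In TC-1/IR, RT plus IL-7 over RT had 3 of 66 measured proteins higher (4.55%) and 31 lower (47%), and after centring 22 (33.3%) and 12 (18.2%) of 66. Of the 29, 23 were measured, with 3 higher (CCL19, CXCL9 and CXCL16) and 9 lower, and after centring 12 of 26 were higher and 3 lower. CCL19 averaged 6.59 with RT plus IL-7 and 3.53 with RT. Among those lower without centring, IL-1ra averaged 10.8 with RT plus IL-7 and 19.7 with RT (log2 -0.87), CCL17 2.56 with RT plus IL-7 and 4.49 with RT, and serpin E1 3.60 with RT plus IL-7 and 23.1 with RT. The median shift removed by centring was -1.21 in this pair. After it, the log2 ratios of IL-1ra and CCL17 were 0.34 and 0.40.

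**Figure D5:**
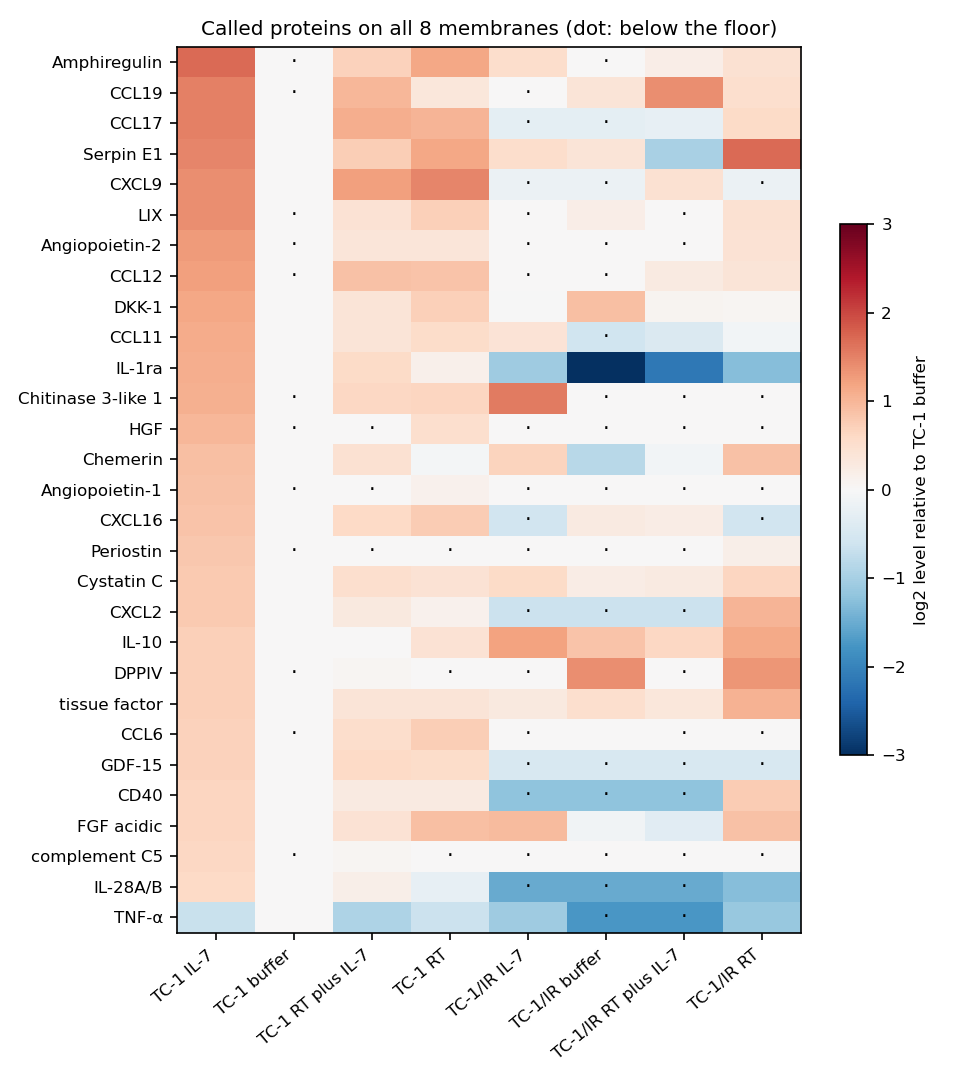
Levels of 28 of the 29 proteins called higher and of TNF-α on all 8 membranes, as log2 relative to TC-1 buffer with values below 2.49 set to that floor (dots); the colour scale ends at 3 either way. Among the TC-1 columns IL-7 is the reddest in all rows but CCL6, CXCL9, FGF acidic and TNF-α, and DPPIV and DKK-1 are redder in TC-1/IR buffer than in TC-1/IR IL-7.

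A limma fit over all 8 membranes treated the 2 TC-1 pairs as replicates of the IL-7 effect and allowed line to modify both treatments. Its 2 residual degrees of freedom come from how the IL-7 effect differs with and without RT in each line. The SE and p-values therefore measure that difference, pooled over the lines, and not a spread between replicate membranes. It called 0 of 75 proteins for IL-7 in TC-1 (0%), and 1 had an unadjusted p under 0.05. The effect was 1.08 for CCL19 (log2, SE 0.51), 0.62 for amphiregulin (SE 0.60), 0.75 for IL-1ra (SE 0.76) and -0.47 for TNF-α (SE 0.49), each with a limma adjusted p of 0.973. For a difference of the IL-7 effect between the lines limma again called 0 of 75 (0%), with 1 at an unadjusted p under 0.05, DPPIV (log2 -1.74, SE 0.62, limma adjusted p = 0.982). The 95% limits of the IL-7 effect in TC-1 ran from -1.03 to 2.53 for IL-1ra and from -0.79 to 2.02 for amphiregulin. The buffer pair is 1 of the 2 TC-1 pairs behind each effect. That its ratios lie inside these limits is therefore no separate check.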

How the data were processed

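Protein levels were read with a membrane antibody array for mouse cytokines (biotinylated detection antibodies, per the labels' protocols). The authors deposited a linear spot intensity for each of 222 spots per membrane. Imaging software, background removal and any scaling are not stated in the sources. The files of single membranes and the combined values of the series were compared and 0 values differed. Precision is limited by how few arrays there are.

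From these, duplicate spots were averaged, floored at 2.49 and compared on the log2 scale. For centring, each membrane was scaled to its median over the 28 proteins above the floor on all 8, and then floored. Named proteins were those called by size with or without centring, the 8 strongest on the IL-7 membrane, IL-7 and members of 19 functional lists. All 111 proteins have RefSeq symbols through their Entrez identifiers. The values of 2 proteins that this rule takes in are not reported here, though the counts include them. The proteins, lists and rules were chosen with earlier results of these data known.

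limma 3.58.1 (R 4.3.3) was fitted to the proteins that passed the floor on 4 or more of the 8 membranes, with line, RT, IL-7, line by RT and line by IL-7 and 2 residual degrees of freedom; Benjamini-Hochberg adjusted p under 0.05 made a call. Both methods were run on simulated data that held no membrane shift, no trend with place and no interaction of RT with IL-7. Those runs do not show how the methods behave where such features are present. Alternatives changed the floor, threshold, spots, scaling and the limma settings.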

Additional observations from a re-analysis of the deposited data

Results flagged for a closer look

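For 4 proteins IL-7 over buffer was called in opposite directions in the 2 lines. Each line has 1 membrane a group, so the difference itself was not tested for these pairs. The limma fit that also takes in the irradiated membranes gave an adjusted p of 0.982 for the difference in all 4. The calls are those without centring. After it, the parental call of DPPIV was lost (log2 0.27), while those of DKK-1, CXCL16 and TNF-α stayed. With position fitted, the parental call of TNF-α was lost (log2 -0.23).

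DPPIV, a peptidase that trims CXCR3 ligands, had a log2 ratio of 0.71 in the parental line and -1.39 in TC-1/IR, at least 2.10 apart since a floored value stands in each. The limma difference was -1.74 (SE 0.62). For DKK-1 the ratios were 1.15 and, in TC-1/IR, -0.92, which is 2.07 apart with all 4 means above the floor, and limma gave -0.87 (SE 0.75). CXCL16 had 0.85 in the parental line and -0.83 in TC-1/IR, at least 1.68 apart. Its TC-1/IR spots were 1.91 and 1.91 with IL-7, below the floor, and 2.97 and 5.88 with buffer, and limma gave -0.36 (SE 0.78). For TNF-α the parental ratio was -0.66 and that of TC-1/IR at least 0.67, a difference of -1.33 or beyond. Its TC-1/IR spots were 4.03 and 3.90 with IL-7, and the buffer mean of 0.800 was below the floor. The limma difference was 0.50 (SE 0.69). The limma values run TC-1/IR minus TC-1, the others TC-1 minus TC-1/IR.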

How the results depend on the processing

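Against 29 proteins higher and 1 lower, the counts were 13 and 1 with a floor of 2%, 13 and 0 at a 2-fold threshold, 51 and 4 at a looser threshold, 15 and 4 after scaling to the sum, 19 and 2 after subtracting an offset, and 38 and 0 after fitting position, with or without the condition on spots. Against 17 and 1 after centring, they were 20 and 10 with a floor of 0.5%, 1 and 10 with a floor of 2%, 30 and 1 with a floor per membrane, 7 and 0 at 2-fold, 32 and 8 at the looser threshold, 15 and 2 with the first spot alone, and 16 and 7 when centred on the proteins above the floor on both membranes. The causes were not tested. For 38 proteins (those called by size, the 8 strongest with IL-7, and IL-7) 342 log2 ratios were recomputed. Of these, 0 of those called changed sign, and 196 moved by more than the SE of the spots. For lower bounds that SE holds the IL-7 spots alone. A fall to 0.00 was not counted as a change of sign. It occurred with a floor of 2% for angiopoietin-1, CCL6, complement C5, DPPIV, HGF and periostin. limma called 0 proteins for IL-7 in TC-1 and 0 for line by IL-7 under every setting run, from 0 to 0 when leaving out each membrane, where the group left with none is set by the model alone and 1 residual degree of freedom remains. Unadjusted p under 0.05 was reached by 0 to 12 proteins for IL-7 and 0 to 13 for line by IL-7 over the settings, the most with a TC-1 RT or RT plus IL-7 membrane left out for IL-7 and a TC-1/IR IL-7 or buffer membrane for line by IL-7. No paired analysis was possible because each group has 1 membrane and the labels number no animals. Offset, position and a floor set before centring (20 and 1) were chosen after seeing the data. Floors of 0.5% and per membrane each gave 37 higher. Signals close to the floor limit 13 of the 29 calls to lower bounds.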
